A study of Mus musculus with 10 samples.

Results

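Interferon-stimulated genes other than the Oas family were described across 5 types of mouse heart cell. The 41 genes were chosen by symbol, from genes known to respond to interferon, and 40 of them had a row among the 36172 genes of the deposited table. They were chosen with earlier results of these data known, so the counts below describe the list and are no independent test of it. Ifi27 had no row under that symbol. Its name stands as an alias of Ifi27l2a, which was read among the other interferon-stimulated genes below. All 40 rows entered the test of 14254 genes. The filter on low values could not act on them, because the deposited values give the differences of these 40 genes between libraries and not their levels.

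RNA was sequenced from cells of the left atrial appendage of C57BL/6 mice aged 8 to 12 weeks, with 2 libraries for each type and 10 libraries in all. Type B was primary cells freed by weak digestion (0.05% trypsin with 0.1% collagenase D) and sorted as c-kit+ and CD45+. C1, C2 and C3 were later passages of cultures of B cells, in a medium with fetal bovine serum: C1 was passage 6, labelled c-kit+ and CD45-, and C2 (passage 8) and C3 (passage 10) were labelled c-kit- and CD45-. Type A was primary cells freed by strong digestion (0.25% trypsin with 0.1% collagenase D) and sorted as c-kit+ and CD45-. The labels name no allele beyond the strain and no interferon, virus or other agent for any group. The labels do not say whether animals were pooled, or whether replicate libraries are separate animals or cultures, so a p-value here covers only the spread among the sequenced libraries.

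Interferons are secreted proteins that bind receptors on the cell surface and, through Janus kinases, activate the transcription factor complex ISGF3, which includes Stat2 and Irf9. ISGF3 binds a short promoter element, the interferon-stimulated response element, and turns on many genes whose products detect viral nucleic acid, block the growth of viruses or tune the response itself. Some of these genes can also be turned on without interferon, for instance by interferon regulatory factors acting directly, and many have a basal level in resting cells.

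Promoters of the members whose type means differed most are shown, to mark where a core of the response element lies in those that hold it. RefSeq windows on GRCm38.p6, from 250 bases before to 50 bases after the annotated start, were at hand for 31 of the 40 members. GAAA followed after any 2 bases by a second GAAA, a core of the response element, was searched on both strands with overlapping matches counted, and a gene with several starts counted once if any of its windows held it. This core stood in 15 of these 31 members (48.4%), against 1079 of the 27025 genes with a window (3.99%). The 5 widest-ranging members with a window are printed 5′ to 3′ on the gene's own strand, with every base of a match to the response element core on either strand in capitals. They are Ifi44 at chr3:151749861-151750160 on the minus strand, Rsad2 at chr12:26456403-26456702 on the minus strand, Gbp3 at chr3:142559794-142560093 on the plus strand, Isg15 at chr4:156200769-156201068 on the minus strand and Ifit1 at chr19:34640639-34640938 on the plus strand.
Ifi44: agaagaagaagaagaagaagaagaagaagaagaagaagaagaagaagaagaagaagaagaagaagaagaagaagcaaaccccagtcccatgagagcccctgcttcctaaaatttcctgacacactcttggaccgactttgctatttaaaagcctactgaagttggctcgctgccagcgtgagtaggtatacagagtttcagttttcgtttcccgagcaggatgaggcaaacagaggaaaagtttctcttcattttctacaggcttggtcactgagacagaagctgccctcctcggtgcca
Rsad2: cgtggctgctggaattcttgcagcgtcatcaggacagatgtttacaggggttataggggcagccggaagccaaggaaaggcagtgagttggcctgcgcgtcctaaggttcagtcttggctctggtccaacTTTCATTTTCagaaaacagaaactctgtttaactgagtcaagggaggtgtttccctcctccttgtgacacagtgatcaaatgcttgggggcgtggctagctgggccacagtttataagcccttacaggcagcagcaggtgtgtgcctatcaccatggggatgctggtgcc
Gbp3: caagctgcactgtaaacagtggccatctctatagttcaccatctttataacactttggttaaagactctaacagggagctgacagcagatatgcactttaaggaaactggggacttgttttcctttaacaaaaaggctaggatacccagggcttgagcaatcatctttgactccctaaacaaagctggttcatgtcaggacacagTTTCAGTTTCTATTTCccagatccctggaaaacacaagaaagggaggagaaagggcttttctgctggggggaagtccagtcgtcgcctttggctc
Isg15: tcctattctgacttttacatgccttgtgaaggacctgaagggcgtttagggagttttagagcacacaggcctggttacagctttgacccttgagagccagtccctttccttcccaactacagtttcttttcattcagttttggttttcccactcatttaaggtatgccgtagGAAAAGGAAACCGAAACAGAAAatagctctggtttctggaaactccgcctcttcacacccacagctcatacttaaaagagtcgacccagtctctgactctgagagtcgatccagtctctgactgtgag
Ifit1: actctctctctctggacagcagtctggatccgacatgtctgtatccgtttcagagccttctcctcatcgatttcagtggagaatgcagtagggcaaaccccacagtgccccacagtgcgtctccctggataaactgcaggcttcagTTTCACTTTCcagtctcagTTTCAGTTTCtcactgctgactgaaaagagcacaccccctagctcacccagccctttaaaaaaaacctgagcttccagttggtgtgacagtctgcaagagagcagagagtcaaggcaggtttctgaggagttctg
The window of Isg15 held 3 overlapping matches, the first of them starting 78 bases before the start. Rsad2 held a match that starts 120 bases before the start. The printed window of Gbp3, the 1 of its 2 windows with the core, held 2 overlapping matches, and Ifit1 held 2 that lie apart, while Ifi44 held no exact match. No window was at hand for Usp18. A match describes the letters in a window and does not show binding.

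The libraries differed in depth, and C3 stood apart in more than the genes of interest. Relative depth, estimated from the steps between low values, was 3.86 and 5.03 in C3, against 0.436 to 1.5 in the other 8 libraries. The estimate was least secure in C3. The score of how closely low values fell on the steps was 0.430 and 0.312 there, against 0.602 to 0.803 elsewhere. The Y-linked genes Ddx3y, Eif2s3y, Kdm5d and Uty lay at the floor of 1 normalized read in both C3 libraries, while Ddx3y averaged 485 normalized reads in B, 1296 in C1, 71.7 in C2 and 486 in A. Of the 5 sex-chromosome genes read, these 4 had already fallen in C2 against C1, and Xist, the RNA of the inactive X chromosome, did not follow them. Xist stood at 4.92 and 4.74 (B), -4.82 and -5.24 (C1), -5.8 and -4.61 (C2), -0.17 and 0.17 (C3) and 1.09 and 4.12 (A), and rose by 5.21 ± 0.89 in C3 over C2 (limma adjusted p = 0.0037). The labels make C3 a later passage of the cultures that gave C1 and C2. Whether these shifts came with passage or with a different source of cells was not tested, and passage, source animal and depth cannot be told apart in any comparison with C3. Kit RNA was at 22.9 and 12.7 normalized reads in B, 35.3 and 66.4 in C1 and 3.36 and 72.3 in A, at or near the floor in C2 (1 and 3.10), and at the floor in both C3 libraries. Ptprc, which encodes CD45, was at 2823 and 2723 normalized reads in B, at or within 0.01 of the floor in the 6 cultured libraries, and at 6.72 and 82.1 in A, which was sorted as CD45-. The A libraries were the least alike: their root mean square difference over all genes was 1.06 on the log2 scale, against 0.435 to 0.520 within the other types.

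Interferon-stimulated genes were high in C3. Of the 40 members, 36 rose in C3 over C2 and none fell, where 11.6% of all genes tested rose and 16.2% fell. Over C1, 38 rose and none fell, where 17.1% of all genes rose and 17.7% fell. A gene was called when the limma adjusted p was under 0.05 and the log2 difference was at least 1. The median member differed by 2.17 on the log2 scale between C3 and C2 and by 2.58 between C3 and C1, and the median of all genes was 0.00 in both. Both comparisons share the C3 libraries, and 36 members rose in both. Without either A library, in a fit added after the data were seen, the counts were again 36 and 38.

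Values below are log2 values centred so that a gene's 10 libraries have a median of 0, as deposited. In 38 of the 40 members both C3 libraries lay above all 8 other libraries, a pattern that 19.2% of all genes tested had. The exceptions were Samhd1 and Irf1. The mean of C3 was the highest of the 5 types in 39 members, and it exceeded the mean of the other types by 0.07 to 6.38 with a median of 2.21, against a median of -0.05 over all genes. Leaving C3 aside, the type means of the median member spanned 1.33, close to the 1.28 of the median gene.

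**Figure D1:**
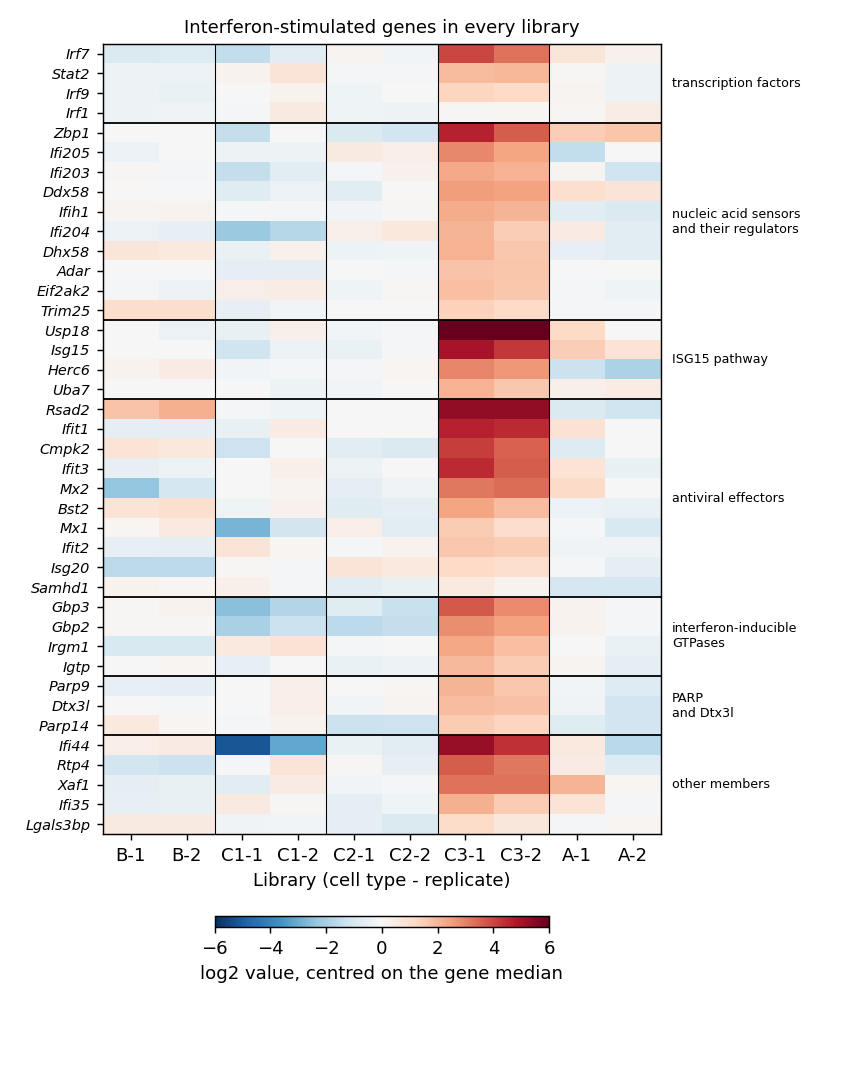
Deposited log2 value of each of the 40 members (rows, grouped by role) in each of the 10 libraries (columns, type and replicate), centred on the gene's own median; red is above and blue below it, and colours are limited to 6 in each direction, which Usp18 passes in C3. The 2 C3 columns are red in nearly every row, Irf1 and Samhd1 are pale, and Ifi44 is darkest blue in C1.

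The transcription factors of the pathway split. Irf7, the factor that amplifies interferon gene transcription, stood at -0.87 and -0.83 (B), -1.48 and -0.66 (C1), 0.15 and -0.15 (C2), 4.02 and 3.24 (C3) and 0.71 and 0.24 (A). It was 3.63 ± 0.36 higher in C3 than in C2 (log2 difference ± SE, limma adjusted p = 0.000448), and both C3 libraries lay 2.53 or more above the highest other library. Stat2, the ISGF3 subunit that carries the activation domain, was at 1.88 and 1.98 in C3 and between -0.34 and 0.75 elsewhere. Irf9, the DNA-binding subunit, was at 1.28 and 1.18 in C3 and at most 0.23 elsewhere. Stat2 rose by 1.98 ± 0.21 in C3 over C2 (limma adjusted p = 0.000587) and Irf9 by 1.37 ± 0.19 (limma adjusted p = 0.00163). Irf1, a factor that interferon gamma induces, stood at -0.31 and -0.20 (B), -0.06 and 0.54 (C1), -0.24 and -0.29 (C2), 0.06 and 0.07 (C3) and 0.06 and 0.42 (A), so C3 lay inside the range of the other libraries. Irf1 was the 1 member called in none of the 6 comparisons, with a log2 difference of 0.33 ± 0.22 in C3 against C2 (limma adjusted p = 0.267).

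All 10 sensors of nucleic acid and their regulators rose in C3 over C2, by 1.26 to 5.13 with a median of 2.12, and all 10 rose over C1. Zbp1, which senses left-handed nucleic acid and can start necroptosis, stood at 0.00 and -0.01 (B), -1.42 and 0.00 (C1), -0.88 and -1.15 (C2), 4.61 and 3.62 (C3) and 1.49 and 1.67 (A). Its C3 libraries were the highest and its A libraries came next. Zbp1 was 5.13 ± 0.48 higher in C3 than in C2 (limma adjusted p = 0.000387). Ddx58, which encodes the RNA helicase RIG-I, stood at -0.03 and 0.03 (B), -0.72 and -0.34 (C1), -0.62 and -0.04 (C2), 2.52 and 2.43 (C3) and 0.99 and 0.76 (A), and showed the same order. Ifih1, which encodes MDA5, was at 2.23 and 2.04 in C3 and at most 0.19 elsewhere. Dhx58, which encodes the regulator LGP2, was at 2.07 and 1.64 in C3 and at most 0.72 elsewhere. The 2 RNA sensors and their regulator all had C3 libraries clear of the rest. Among the DNA-binding PYHIN proteins, Ifi204 stood at -0.36 and -0.48 (B), -2.23 and -1.70 (C1), 0.36 and 0.61 (C2), 2.04 and 1.46 (C3) and 0.47 and -0.65 (A). Ifi205 stood at -0.33 and 0.02 (B), -0.33 and -0.29 (C1), 0.52 and 0.38 (C2), 2.87 and 2.35 (C3) and -1.47 and -0.02 (A). Ifi203 stood at 0.07 and -0.07 (B), -1.44 and -0.68 (C1), -0.14 and 0.27 (C2), 2.26 and 2.09 (C3) and 0.15 and -1.19 (A). All 3 were highest in C3, and Ifi204 and Ifi203 were lowest in C1 replicate 1. Ifi204 had the smallest rise of the group over C2, 1.26 ± 0.39 (limma adjusted p = 0.0359), and this call was lost when either library of B, C2 or C3 was left out. The call of Ifi203 over C2 (2.11 ± 0.45, limma adjusted p = 0.00845) was lost without C2 replicate 1. The editing enzyme Adar, the kinase Eif2ak2 (PKR), which halts translation, and Trim25, the ubiquitin ligase of RIG-I, were at 1.16 to 1.80 in C3. Trim25 was at 1.06 in both B libraries, just under its C3 values of 1.39 and 1.16.

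The genes of the ISG15 pathway, which attaches the ubiquitin-like protein ISG15 to other proteins, included the largest difference of C3 from C2. Usp18, the protease that removes ISG15 and also restrains the type I receptor, stood at -0.01 and -0.36 (B), -0.46 and 0.28 (C1), -0.18 and -0.09 (C2), 6.47 and 6.38 (C3) and 1.20 and 0.01 (A). It was 6.56 ± 0.41 higher in C3 than in C2, a 94.4-fold difference of the geometric means (limma adjusted p = 8.42e-05), and the lower C3 library lay 5.18 above the highest other library. Isg15 itself stood at 0.04 and -0.04 (B), -1.22 and -0.34 (C1), -0.39 and -0.09 (C2), 4.94 and 4.24 (C3) and 1.46 and 0.84 (A). Isg15 rose by 4.84 ± 0.37 over C2 (limma adjusted p = 0.000179), and A held the next highest pair of libraries. Herc6, the mouse ligase for ISG15, stood at 0.23 and 0.50 (B), -0.16 and -0.14 (C1), -0.13 and 0.13 (C2), 2.92 and 2.61 (C3) and -1.29 and -1.88 (A). Herc6 was thus lowest in A, where Isg15 was second highest. Uba7, the activating enzyme, was at 2.08 and 1.63 in C3 and between -0.32 and 0.42 elsewhere. Ube2l6, the conjugating enzyme, was read with the signalling genes and rose as well, by 3.66 ± 0.25 over C2 (limma adjusted p = 0.000113).

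Of the 10 antiviral effectors, 7 rose in C3 over C2 and 9 over C1. Rsad2, which encodes viperin, stood at 1.71 and 2.14 (B), -0.11 and -0.25 (C1), 0.04 and -0.04 (C2), 5.34 and 5.31 (C3) and -0.88 and -1.20 (A). Its neighbour Cmpk2, a mitochondrial nucleotide kinase, stood at 0.83 and 0.61 (B), -1.23 and -0.01 (C1), -0.63 and -0.87 (C2), 4.17 and 3.54 (C3) and -0.76 and 0.01 (A). Both were highest in C3 and next highest in B. The rise over C2 was 5.32 ± 0.19 for Rsad2 (limma adjusted p = 1.08e-05) and 4.6 ± 0.45 for Cmpk2 (limma adjusted p = 0.000429). Of the Ifit genes, whose proteins bind viral RNA or hinder its translation, Ifit1 stood at -0.57 and -0.58 (B), -0.44 and 0.50 (C1), -0.02 and 0.01 (C2), 4.68 and 4.46 (C3) and 0.85 and -0.01 (A). Ifit3 stood at -0.49 and -0.33 (B), 0.04 and 0.32 (C1), -0.29 and -0.04 (C2), 4.46 and 3.62 (C3) and 0.81 and -0.42 (A). Ifit2 was at 1.60 and 1.54 in C3 and between -0.60 and 0.77 elsewhere. The rise over C2 was 4.57 ± 0.36 for Ifit1 (limma adjusted p = 0.000214), 4.21 ± 0.43 for Ifit3 (limma adjusted p = 0.000506) and 1.53 ± 0.23 for Ifit2 (limma adjusted p = 0.00205), so the 3 genes of the cluster shared the direction and differed in size. The rise of Ifit2 over C1 was not called without C1 replicate 2.

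The Mx genes, which encode dynamin-like GTPases that restrict viruses, differed in the types where they were low. Mx2 stood at -2.31 and -1.07 (B), -0.01 and 0.15 (C1), -0.54 and -0.22 (C2), 3.17 and 3.37 (C3) and 1.14 and 0.01 (A). Mx1 stood at 0.11 and 0.58 (B), -2.79 and -1.12 (C1), 0.39 and -0.69 (C2), 1.53 and 1.04 (C3) and -0.11 and -0.92 (A). Mx2 was lowest in B and Mx1 lowest in C1, and the 2 Mx1 libraries of C1 and of C2 lay far apart. Mx2 rose by 3.65 ± 0.48 over C2 (limma adjusted p = 0.0013), while the difference of Mx1 over C2, 1.43 ± 0.62, did not pass (limma adjusted p = 0.101). Over C1 both rose by a like amount, Mx2 by 3.20 ± 0.48 (limma adjusted p = 0.00145) and Mx1 by 3.24 ± 0.62 (limma adjusted p = 0.00427). Bst2, the tetherin that holds budding virus at the cell surface, was at 2.35 and 1.85 in C3 and at most 0.96 elsewhere. Isg20, an exonuclease, stood at -1.58 and -1.57 (B), 0.07 and -0.09 (C1), 0.75 and 0.61 (C2), 1.19 and 1.02 (C3) and -0.07 and -0.58 (A), with C3 highest, C2 next and B lowest. The difference of Isg20 in C3 over C2 was 0.43 ± 0.19 (limma adjusted p = 0.113), and over C1 it rose by 1.12 ± 0.19 (limma adjusted p = 0.00269). Samhd1, which depletes deoxynucleotides, stood at 0.19 and 0.13 (B), 0.29 and -0.13 (C1), -0.61 and -0.46 (C2), 0.61 and 0.19 (C3) and -1.0 and -1.05 (A). C3 replicate 2 lay within the range of the B and C1 libraries, and the difference of 0.93 ± 0.20 over C2 had a limma adjusted p of 0.00899 and fell short of the log2 difference of 1.

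All 4 interferon-inducible GTPases, of families that act in defence against microbes held in vacuoles, rose in C3 over C2, by 2.09 to 4.27. Gbp3 stood at 0.08 and 0.21 (B), -2.49 and -1.75 (C1), -0.71 and -1.31 (C2), 3.68 and 2.84 (C3) and 0.19 and -0.08 (A). Gbp2 stood at 0.07 and 0.05 (B), -1.92 and -1.30 (C1), -1.58 and -1.45 (C2), 2.78 and 2.42 (C3) and 0.20 and -0.05 (A). Both guanylate-binding proteins were lower in C1 and C2 than in the primary types and highest in C3. The rise over C2 was 4.27 ± 0.37 for Gbp3 (limma adjusted p = 0.000284) and 4.12 ± 0.24 for Gbp2 (limma adjusted p = 6.79e-05). Irgm1 was at 2.32 and 1.82 in C3 and at most 0.85 elsewhere, and Igtp at 1.94 and 1.51 in C3 and at most 0.17 elsewhere. Parp9, Dtx3l and Parp14, whose products act on ADP-ribose marks and Parp9 with Dtx3l as partners, rose by 1.81, 1.79 and 2.65 in C3 over C2.

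The other 5 members rose in both comparisons. Ifi44, a cytoplasmic protein of the antiviral response, had the widest range of type means of all members and stood at 0.40 and 0.48 (B), -5.12 and -3.13 (C1), -0.40 and -0.62 (C2), 5.21 and 4.38 (C3) and 0.57 and -1.61 (A). Its C3 libraries were highest and its C1 libraries lowest, with no overlap with any other type. It was 5.30 ± 0.83 higher in C3 than in C2 (limma adjusted p = 0.00257) and 8.91 ± 0.83 higher than in C1 (limma adjusted p = 0.00019). The next largest differences over C1 were those of Usp18 (6.51 ± 0.41, limma adjusted p = 4.18e-05), Rsad2 (5.5 ± 0.19, limma adjusted p = 5e-06), Gbp3 (5.38 ± 0.37, limma adjusted p = 5.89e-05) and Isg15 (5.37 ± 0.37, limma adjusted p = 6.02e-05). Rtp4, a chaperone of receptors at the membrane, stood at -1.10 and -1.27 (B), -0.05 and 0.77 (C1), 0.05 and -0.49 (C2), 3.61 and 3.16 (C3) and 0.50 and -0.77 (A). Xaf1, which promotes apoptosis, stood at -0.59 and -0.46 (B), -0.64 and 0.50 (C1), -0.16 and -0.10 (C2), 3.27 and 3.26 (C3) and 2.03 and 0.10 (A). Both had their C3 libraries above all others, and A replicate 1 of Xaf1 stood well above A replicate 2. Ifi35 was at 2.11 and 1.5 in C3 and at most 0.82 elsewhere, and Lgals3bp, a secreted glycoprotein, was at 1.10 and 0.69 in C3 and at most 0.54 elsewhere. Over C1, the call of Ifi35 was lost without C1 replicate 2 or C3 replicate 1, and that of Lgals3bp without C3 replicate 1.

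**Figure D2:**
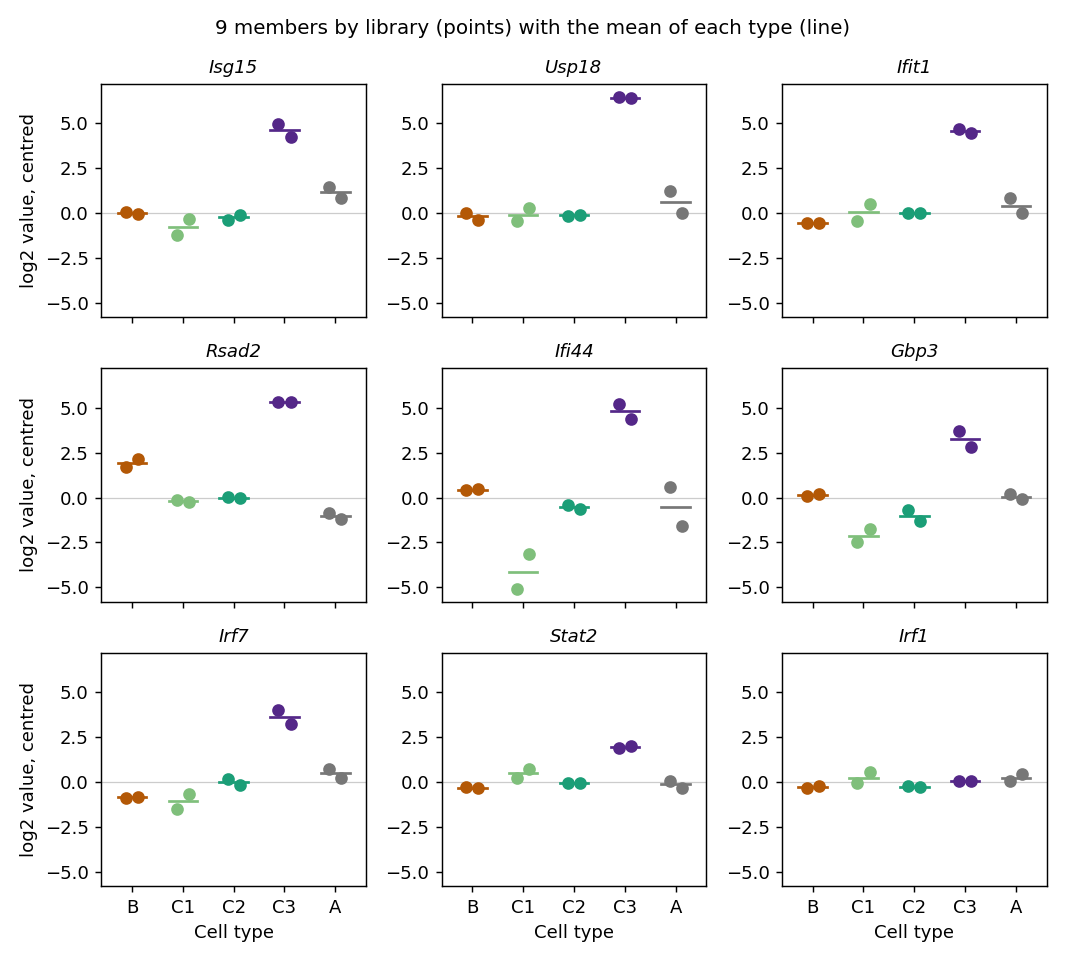
Deposited log2 value (vertical axis, gene median set to 0) of 9 members in each library, by type (horizontal axis); points are libraries and lines are type means. The C3 points lie above all others in every panel except that of Irf1, where the types overlap, and the C1 points of Ifi44 lie lowest, at -5.12 and -3.13.

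**Figure D3:**
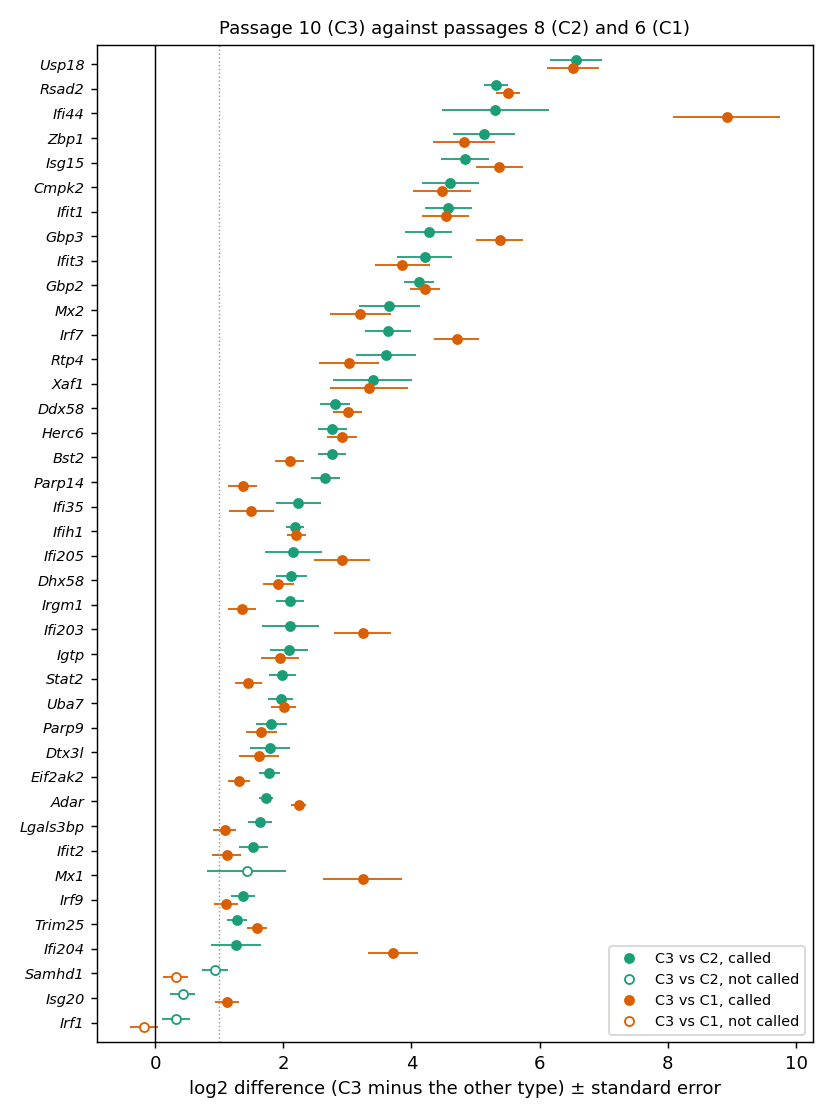
Log2 difference (horizontal axis) of C3 over C2 (green) and of C3 over C1 (orange) for each of the 40 members, with bars of 1 standard error from limma; open points were not called and the dotted line marks a difference of 1. Usp18 is largest over C2 (6.56) and Ifi44 over C1 (8.91), while Irf1 lies at 0.33 and -0.18.

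Members that lie side by side shared direction in C3 but not always size. By RefSeq gene positions, Rsad2 and Cmpk2 on chromosome 12 are 12665 bases apart, and Ifit2, Ifit3 and Ifit1 on chromosome 19 are separated by 6585 and 51907 bases. Gbp3 and Gbp2 on chromosome 3 are 47450 bases apart, and Mx1 and Mx2 on chromosome 16 are 73175 bases apart. Dtx3l and Parp9 overlap. In GENCODE M21 (GRCm38), the exons of 16 of the 40 members share bases with another annotated gene, in 9 cases on the other strand. The library kit (TruSeq RNA v2) does not mark strand, so reads from such pairs cannot be told apart, nor can those of near-identical paralogs among the Ifi200, Ifit and Gbp genes be assigned with certainty. The 15 members with the response element core in a window were 1.72 to 5.15 higher in C3 than the mean of the other types, with a median of 2.55. The 16 without it were 0.07 to 5.97 higher, with a median of 1.83, so the ranges overlapped.

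The members also moved together between the 2 libraries of C3, of C1 and of A, less so in C2 and not in B. C3 replicate 1 lay above C3 replicate 2 in 37 of 40 members (92.5%), against 50.5% of all genes. C1 replicate 2 lay above C1 replicate 1 in 33 members (82.5%), against 49.5% of all genes, and A replicate 1 above A replicate 2 in 33, against 49.4% of all genes. C2 replicate 2 lay above C2 replicate 1 in 26 members, against 47.9% of all genes. In B replicate 2 was the higher in 17 of 40, against 48.4% of all genes. The median gap between the 2 C3 libraries was 0.39 for the members and 0.19 for all genes, which is small beside the rise over C2.

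Genes upstream of the members were less uniform in C3. Of the 10 interferon genes listed, Ifna1, Ifna2, Ifna4, Ifna5, Ifnb1, Ifng, Ifnk, Il28a and Il28b were at 0 in every library, and Ifne was removed by the filter on low values. Also at 0 throughout were Cxcl9, Cxcl11, Ifi47 and Trex1, and a listed 0 can be a failed estimate. None of the 6 receptor genes tested rose in C3 over either culture, beside 11.6% of all genes over C2 and 17.1% over C1. With 6 genes, a count of 0 is close to these shares. Ifnar2, a subunit of the type I receptor, was at -1.13 and -1.40 in C3, against 0.17 and 0.67 in C1, and fell by 1.68 on the log2 scale (SE 0.22, limma adjusted p = 0.000845). Part of this fall was present in C2 (-0.73 and -0.48), where Ifnar2 was lower than in C1 by 1.02 (SE 0.22, limma adjusted p = 0.0129). Against C2, the difference of Ifnar2 in C3 was -0.66 (SE 0.22, limma adjusted p = 0.0481). It was not called because it fell short of a log2 difference of 1. Ifnar1, the other subunit, was at -0.59 and -0.68 in C3, against -0.08 and -0.19 in C2. Its difference of -0.50 (SE 0.15, limma adjusted p = 0.031) was not called for the same reason. Of 16 signalling genes, 3 rose in C3 over C2 and none fell, beside the 11.6% of all genes that rose and 16.2% that fell. Over C1, 2 rose and 1 fell, beside the 17.1% of all genes that rose and 17.7% that fell. The gene lower than in C1 was Irf2, a repressor of interferon responses, at -0.83 and -0.76 in C3, against 0.49 and 0.69 in C1. Among those higher than in C2 were Ube2l6, described above, and the kinase Jak1, which was at 0.03 and -0.05 in C3, against -1.22 and -1.12 in C2, and was not called against C1. Of 15 genes of nucleic acid sensing, Mb21d1 (which encodes cGAS) and Tlr3 rose in C3 over C2 and Ikbke fell. These counts stand beside the same 11.6% and 16.2% of all genes. Over C1, Mb21d1 rose and 4 fell, beside the same 17.1% and 17.7% of all genes. Among the 4 was Aim2, at -5.28 and -4.90 in C3 and 0.09 and 0.35 in C1. Aim2 was already low in C2, at -5.06 and -4.72, and was not called in C3 against C2.

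Other interferon-stimulated genes outside the 40 went the same way in most cases. Their list, too, was chosen with earlier results of these data known. Of 42 tested, 31 rose in C3 over C2 and 1 fell, with a median log2 difference of 1.62, and 25 rose over C1 and 4 fell, with a median of 1.54. Of all genes, 11.6% rose and 16.2% fell over C2, and 17.1% rose and 17.7% fell over C1. Trim30a, a regulator of inflammatory signalling, was at 3.71 and 3.46 in C3, against -2.42 and -1.77 in C2, and rose by 5.68 ± 0.30 (limma adjusted p = 4.98e-05). The chemokine gene Cxcl10 was at 5.57 and 4.47 in C3, against -1.93 and -0.94 in C1. Slfn5 went the other way against C1, at -4.85 and -5.62 in C3 and 1.13 and 1.38 in C1. Slfn5 was already low in C2, at -5.51 and -3.58, and its difference in C3 against C2 was not called. Apobec3, a restriction factor, fell over both C2 and C1.

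**Figure D4:**
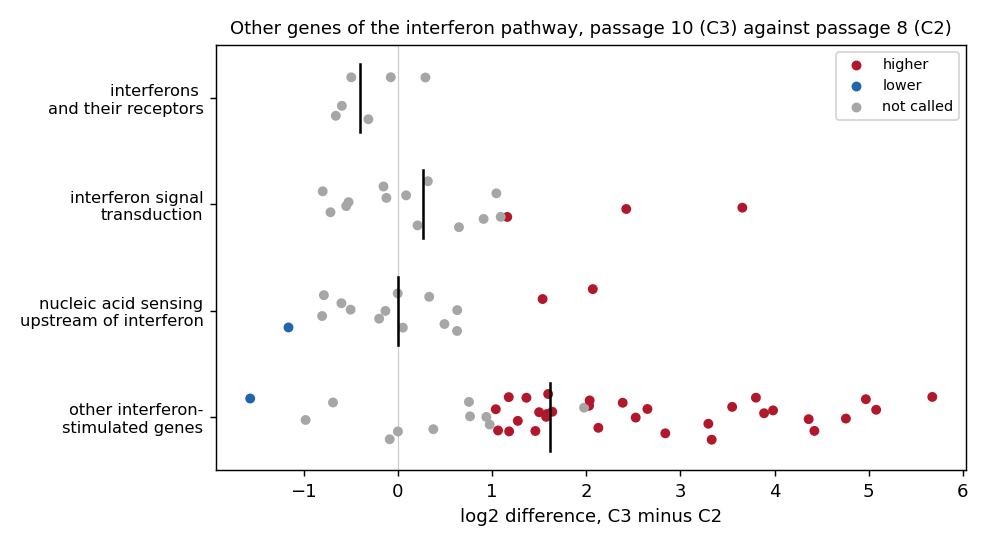
Log2 difference of C3 over C2 (horizontal axis) for each tested gene of 4 further lists of the interferon pathway (rows); red points rose, blue points fell, grey points were not called, and black lines are list medians. The other interferon-stimulated genes lie mostly above 0, with a median of 1.62. None of the 6 receptor genes was called, where 11.6% of all genes tested rose and 16.2% fell.

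Markers of cell types moved with C3 too. All 10 fibroblast markers fell in C3 against C2, with a median log2 difference of -3.32, and 4 of 6 mesothelial markers rose, with a median of 3.54. Over C1, 5 of 6 mesothelial markers rose, and 1 fibroblast marker rose and 6 fell. The shares of all genes were 11.6% higher and 16.2% lower over C2, and 17.1% higher and 17.7% lower over C1. The part of these shifts in the rise of the members was not tested, and in bulk RNA fewer cells of a type and less RNA per cell cannot be told apart. None of the 12 macrophage markers was called in C3 against C2, and their 3 members with a known level (Ptprc, Emr1 and Tyrobp) summed to 4.07 and 3.18 normalized reads in C3, 6.08 and 3.04 in C2, and 23078 and 22161 in B. Siglech, which marks plasmacytoid dendritic cells, was listed at 0 in every library, and 1 of 4 tested markers of those cells rose over C2, the member Bst2.

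In the 4 comparisons without C3 the calls were fewer and mixed in direction. B and A are primary cells that differ in both digestion and CD45 sort, which cannot be told apart. In B against A, 7 members rose and 5 fell, where 14.5% of all genes rose and 12.4% fell. The median member differed by -0.06, against 0.01 for all genes. Rsad2 was at 1.71 and 2.14 in B and -0.88 and -1.20 in A, and rose by 2.96 ± 0.19 (limma adjusted p = 8.95e-05). Herc6, with 0.23 and 0.50 in B against -1.29 and -1.88 in A, rose by 1.95 ± 0.23 (limma adjusted p = 0.000949). Bst2, Dhx58, Parp14, Samhd1 and Trim25 rose as well, by 1.19 to 1.29. The members lower in B were Mx2, which fell by 2.27 (SE 0.48, limma adjusted p = 0.00917), Zbp1 (-1.58 ± 0.48, limma adjusted p = 0.0378), Irf7 (-1.33 ± 0.36, limma adjusted p = 0.0239), Isg20 (-1.25) and Isg15 (-1.15). All 12 macrophage markers and 4 of 6 mesothelial markers rose in B over A and 6 of 10 fibroblast markers fell, and their part in these differences was not tested. Without A replicate 2 the count of calls was 18 in place of 12, with 8 higher and 10 lower. The call of Zbp1 was lost without any 1 library of A, B or C2, those of Isg15 and Irf7 without A replicate 1 or either B library, that of Isg15 also without either C2 library, and that of Isg20 without A replicate 1. With only the 4 libraries compared, the calls of Mx2, Parp14 and Isg15 were lost, and under quantile normalization those of Trim25, Zbp1 and Isg15. Zbp1 and Isg15 were also not called with no filter on low values or with the replicate block.

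C1 against B sets cultured CD45- cells against primary CD45+ cells. In this comparison 4 members rose and 8 fell, where 12.6% of all genes rose and 21.1% fell. The median member differed by -0.24, against -0.07 for all genes. Ifi44 was at -5.12 and -3.13 in C1 and 0.40 and 0.48 in B, and fell by 4.56 (SE 0.83, limma adjusted p = 0.00375). Gbp3 fell by 2.26 (SE 0.37, limma adjusted p = 0.00228), Rsad2 by 2.10 (SE 0.19, limma adjusted p = 0.000179) and Mx1 by 2.30 (SE 0.62, limma adjusted p = 0.0185). Cmpk2, Gbp2, Ifi204 and Trim25 fell too. Mx2 rose, with -0.01 and 0.15 in C1 against -2.31 and -1.07 in B (1.76 ± 0.48, limma adjusted p = 0.0194), and so did Irgm1 (1.60), Isg20 (1.56) and Rtp4 (1.54). All 12 macrophage markers fell in C1 against B, and all 5 endothelial markers tested fell, with the part of either not tested. Without either B library, 8 members were called in place of 12. The calls of Mx1 and Ifi204 were lost without C1 replicate 1 or either B library, that of Mx2 without B replicate 1 or either C1 library, and that of Rtp4 without C1 replicate 2 or either B library. That of Cmpk2 was lost without C1 replicate 1 or any 1 library of B, C2 or C3, with no filter on low values and with the replicate block. Mx1 and Cmpk2 were not called with only the 4 libraries compared, nor Mx1, Cmpk2, Ifi204 and Rtp4 under quantile normalization.

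In C1 against A, 2 members rose and 8 fell, where 10.1% of all genes rose and 16.6% fell, and the median member differed by -0.05, against -0.04 for all genes. The largest difference was again in Ifi44, which fell by 3.61 (SE 0.83, limma adjusted p = 0.0128). Zbp1 fell by 2.28 (SE 0.48, limma adjusted p = 0.00914), Gbp3 by 2.18 (SE 0.37, limma adjusted p = 0.00388), Isg15 by 1.93 (SE 0.37, limma adjusted p = 0.00627) and Ifi204 by 1.88 (SE 0.39, limma adjusted p = 0.00856). Ddx58, Gbp2 and Irf7 fell as well, and Herc6 (1.44) and Samhd1 (1.11) rose. In the same comparison 4 of 5 endothelial, 7 of 10 fibroblast and 4 of 12 macrophage markers fell and 1 of 6 mesothelial markers fell, while 4 of 6 mesothelial markers rose, with a median of 4.02 over the list, and their part was not tested. With only the 4 libraries compared, 4 members were called, and the calls of Ifi44, Zbp1, Isg15, Ifi204, Irf7 and Samhd1 were lost. That of Ifi44 was also lost under quantile normalization. Without C1 replicate 1 the calls of Ifi44, Ifi204, Irf7 and Samhd1 were lost.

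C2 (passage 8) and C1 (passage 6) also differ in c-kit label and in the Y-linked genes, and these cannot be told apart from passage. In C2 against C1, 2 members rose and 1 fell, where 12.2% of all genes rose and 8.18% fell. The median member differed by -0.09, against 0.00 for all genes. Ifi44 was at -0.40 and -0.62 in C2 and -5.12 and -3.13 in C1, and rose by 3.61 ± 0.83 (limma adjusted p = 0.0159). Ifi204, with 0.36 and 0.61 in C2 against -2.23 and -1.70 in C1, rose by 2.45 ± 0.39 (limma adjusted p = 0.00405). Parp14 was at -1.27 and -1.25 in C2 and -0.14 and 0.20 in C1, and fell by 1.29 (SE 0.23, limma adjusted p = 0.00593). Of 10 fibroblast markers 5 rose and 2 fell. Of 6 mesothelial markers 2 rose and none fell, with a median of 1.63, and of 5 endothelial markers 2 rose and none fell. The part of these markers was not tested. The call of Ifi44 was lost without C1 replicate 1 or either C2 library, and with only the 4 libraries compared. Without C1 replicate 2, or without either C3 library, 5 members were called in place of 3.

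**Figure D5:**
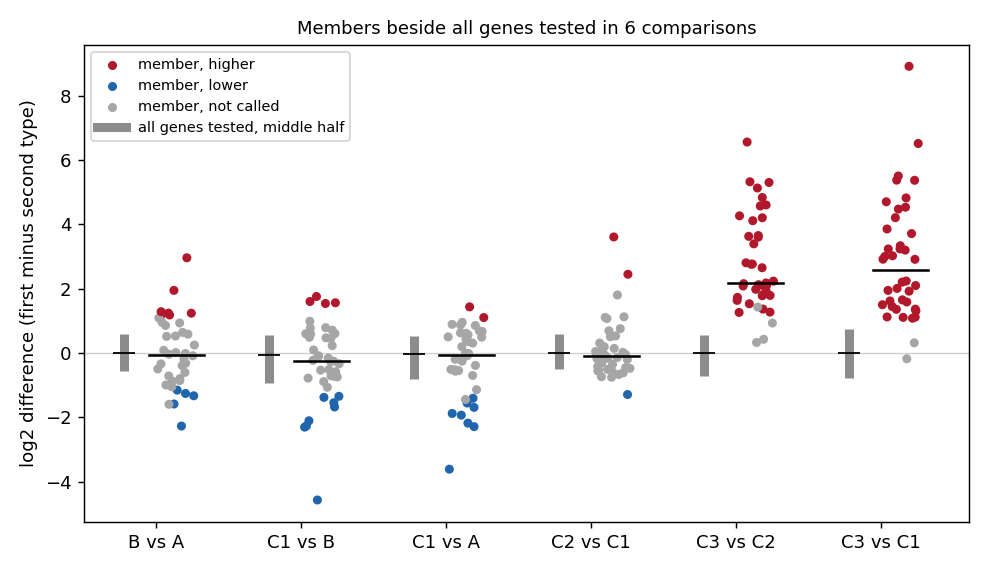
Log2 differences (vertical axis, first-named type minus the second) of the 40 members in each of the 6 comparisons, as points coloured by call with their median as a black line, beside the interquartile range of all 14254 genes tested as a grey bar with its median. The members centre near 0 in the 4 comparisons without C3 and at 2.17 and 2.58 in C3 over C2 and C3 over C1.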

How the data were processed

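RNA-seq was done on 10 libraries, 2 for each of 5 cell types, prepared with TruSeq RNA v2 per the labels. TopHat, DESeq and the build mm10 are named in the submitters' processing notes, without versions. The deposited table holds log2 values, 1 per gene and library, from the authors' counts after scaling for depth; the values themselves show that each gene's median over the 10 libraries was taken away and that low values were raised to a floor of 1 normalized read. Where 2 or more libraries share a gene's lowest value, that value was read as the floor and gave normalized reads. No member has such a tie. Low values were whole reads (within 0.01 read) for 33.1% to 70.3% of values per library, so no count test was run.

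All 10 libraries were fitted with limma 3.58.1 in R 4.3.3, with 1 mean per type and 5 residual degrees of freedom. Genes of known level with under 2 libraries at 10 normalized reads were left out, which kept 14254 genes. P-values were adjusted (Benjamini-Hochberg) over these genes in each of 6 comparisons, and calls needed both an adjusted p under 0.05 and a log2 difference of at least 1. The script was tested on simulated data. Values per library are given for the 20 members with the widest range of type means and for members not called in C3, and tests for the 5 members with the largest called differences in each comparison and for others that define a role. Alternatives were quantile normalization, equal library medians, other filters, a pseudocount of 5 where levels were known, only the compared libraries, a replicate block and each library left out. Deviations of libraries with the same replicate number were little correlated between types (-0.06 to 0.09), which cannot show whether they share an animal, culture or run. The members, the gene lists and the rules were chosen with earlier results of these data known. A result on an item withheld from this text is not reported here.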

Additional observations from a re-analysis of the deposited data

How the results depend on the processing

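The counts of members called kept their size within 1.5 times under every alternative for C3 against C2 and C3 against C1. With only the 4 libraries compared, 4 members were called in C1 against A (1 higher, 3 lower) in place of 10. With 1 library left out at a time, the counts of calls moved less in C3 against C2 and C3 against C1 than in the other comparisons. In 38 members both C3 libraries lay above every other whenever both were kept. With C3 replicate 2 left out, C3 replicate 1 alone lay above every other library in 39, as it did in 22.5% of all genes. Of 4240 member differences refitted, 4112 kept their side of the call, 78 lost it, 50 gained it and none reversed. Quantile normalization gave 37 members higher in C3 than in C2 and 38 higher than in C1, with none lower. It changed the split of members elsewhere, to 7 higher and 3 lower in B against A, 4 and 5 in C1 against B, 5 and 7 in C1 against A, and 2 and 2 in C2 against C1. Over all genes the split became 2080 higher and 1865 lower in C3 against C2 (1657 and 2315 as reported), 1948 and 2014 in C2 against C1 (1740 and 1166), 2290 and 2240 in C1 against B (1799 and 3005), 2219 and 2105 in C1 against A (1433 and 2365), and 1484 and 1714 in B against A (2066 and 1769). With only the 4 libraries compared, 2538 genes were called in B against A (3835 as reported) and 2375 in C1 against A (3798). The cause of these shifts was not tested.

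With the replicate block, 36 members were called in C3 against C2, 38 in C3 against C1, 10 in B against A, 11 in C1 against B, 10 in C1 against A and 3 in C2 against C1. The labels do not say whether equal replicate numbers pair libraries across types. With 2 libraries per type, calls rest on a spread shared over types, and the unknown levels of the members mean that the number of reads behind each value is not known.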
